A study of Mus musculus with 18 samples.

Results

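The genes examined here encode the coat of caveolae, the small flask-shaped pits of the plasma membrane. They are 8 of the 45151 gene symbols that were listed for all 18 RNA-seq samples, and they were chosen by symbol: the caveolins Cav1, Cav2 and Cav3, the cavins Ptrf (cavin-1), Sdpr (cavin-2) and Prkcdbp (cavin-3), the membrane ATPase Ehd2 and the F-BAR protein Pacsin2. The symbols are the older names used in the deposited files. Transcripts were measured in mature adipocytes of inguinal white fat (iWAT, 6 samples), mature adipocytes of epididymal white fat (eWAT, 6 samples) and brown adipose tissue (BAT, 6 samples). All mice were wild type males on the C57BL/6J background, 16 weeks of age, and were fed regular chow without any further treatment. The white adipocytes had been released with collagenase and taken from the floating layer, whereas BAT was frozen as whole tissue, so depot and preparation cannot be told apart in a comparison with BAT. Samples are named here by the number in their labels, which was read as that of the mouse, and 4 to 5 numbers were shared by any pair of depots.

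Caveolins insert into the inner leaflet of the membrane as hairpins and form the scaffold of a caveola together with the cavins, which coat it from the cytosol. Ptrf is needed for caveolae to form, Sdpr and Prkcdbp join the cavin coat through it, and Ehd2 forms a ring at the neck that holds the pit at the surface. Pacsin2 bends membranes and is linked to the shaping of caveolae. White adipocytes are among the cells with the densest caveolae, as are endothelial cells, and Cav3 and the remaining cavin, Murc (cavin-4), belong to striated muscle.

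The 3 caveolin genes lie on mouse chromosome 6, Cav2 at positions 17231185 to 17239115 and Cav1 at positions 17256335 to 17291452 (mm9, plus strand), so that 17219 bp separate the pair. Cav3 lies at positions 112409495 to 112422866 on the same strand. Their coding sequences were compared because reads of close paralogs could be split between them. The most similar stretch of 60 bases is given here from the coding sequences of NCBIM37 (the assembly behind mm9), with capitals at the 34 positions that are identical in all 3 genes. It spans the codons of the signature motif that all caveolins carry and an exon junction, with 9 bases in one coding exon and 51 bases in the next.
Cav1, chr6:17258037-17258045 joined to chr6:17289113-17289163: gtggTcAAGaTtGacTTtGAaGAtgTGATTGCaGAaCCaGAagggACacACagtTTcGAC
Cav2, chr6:17231502-17231510 joined to chr6:17231895-17231945: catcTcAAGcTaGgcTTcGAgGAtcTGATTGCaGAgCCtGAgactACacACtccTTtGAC
Cav3, chr6:112409911-112409919 joined to chr6:112422131-112422181: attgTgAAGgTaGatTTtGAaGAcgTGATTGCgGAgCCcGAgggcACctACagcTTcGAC
In this stretch Cav2 was identical to Cav1 at 40 positions and Cav3 at 45 positions. The longest run of bases that a Cav1 transcript shared exactly was 12 with Cav2 and 15 with Cav3. A read of Cav1 longer than these runs thus differs from both of the other transcripts, and Cav2 was not compared with Cav3 in this way.

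Windows of 245 bases before RefSeq start sites were matched by symbol for 7 of the 8 genes (all but Prkcdbp) and located in mm9 by exact match. They are shown for Cav1 (its more upstream window), Cav2 and Sdpr, whose transcripts were high in both kinds of white adipocytes. Also shown are windows for Pacsin2 (the most upstream of 3 windows), which differed least between white adipocytes and BAT, and for Cav3, which was close to 0. Capitals mark 3 core promoter motifs on either strand, the GC box (GGGCGG), the CCAAT box (CCAAT) and the TATA box (TATAAA).
Cav1, chr6:17256085-17256329, plus strand: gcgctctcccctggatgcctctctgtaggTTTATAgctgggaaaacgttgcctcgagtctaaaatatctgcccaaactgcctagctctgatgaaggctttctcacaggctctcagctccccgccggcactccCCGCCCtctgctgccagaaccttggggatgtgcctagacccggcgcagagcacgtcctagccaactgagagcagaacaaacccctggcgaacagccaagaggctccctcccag
Cav2, chr6:17230935-17231179, plus strand: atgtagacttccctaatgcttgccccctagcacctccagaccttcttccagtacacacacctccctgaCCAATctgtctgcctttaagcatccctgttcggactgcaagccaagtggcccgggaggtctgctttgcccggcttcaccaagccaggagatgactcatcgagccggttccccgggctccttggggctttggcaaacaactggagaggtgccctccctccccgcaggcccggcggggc
Sdpr, chr1:51345720-51345964, plus strand: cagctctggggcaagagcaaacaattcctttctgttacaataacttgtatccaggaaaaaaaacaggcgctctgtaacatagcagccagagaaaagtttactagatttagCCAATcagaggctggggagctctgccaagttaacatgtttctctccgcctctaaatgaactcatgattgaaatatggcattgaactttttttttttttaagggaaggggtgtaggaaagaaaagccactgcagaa
Pacsin2, chr15:83295042-83295286, minus strand: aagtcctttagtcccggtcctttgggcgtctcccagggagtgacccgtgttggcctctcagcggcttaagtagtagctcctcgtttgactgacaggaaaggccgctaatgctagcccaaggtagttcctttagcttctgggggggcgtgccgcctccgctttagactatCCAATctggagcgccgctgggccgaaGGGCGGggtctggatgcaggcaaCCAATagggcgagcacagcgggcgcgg
Cav3, chr6:112409249-112409493, plus strand: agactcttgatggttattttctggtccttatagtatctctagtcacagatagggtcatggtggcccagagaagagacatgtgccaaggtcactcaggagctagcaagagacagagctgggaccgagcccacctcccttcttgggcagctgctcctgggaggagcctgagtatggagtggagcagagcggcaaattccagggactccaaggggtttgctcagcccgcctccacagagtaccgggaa
The Cav1 window shown held the letters of 1 GC box and 1 TATA box, and the Cav2 and Sdpr windows held 1 CCAAT box each. The Pacsin2 window shown held 1 GC box and 2 CCAAT boxes. The Cav3 window held none of these letters, nor did a further Cav1 window (chr6:17257390-17257634) and the other Pacsin2 windows. Motifs were matched by letters alone, and the TATA letters of Cav1 are on the minus strand near the upstream end of the window. Of 32534 distinct RefSeq windows of the same length, 32.3% held a GC box, 33.4% a CCAAT box and 12.2% a TATA box. In all, 11 windows of these genes were examined.

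The level of a gene is given as RPKM, that is, reads scaled to the length of the annotated row and to the reads of the sample, and the samples held 22929576 to 34512470 reads. In iWAT and BAT a row is a gene with all its exons merged. In eWAT a row is a single transcript, and the transcript with the most reads was used. The eWAT row was shorter than the merged row for Cav1 (2487 against 3434 bp), Cav2 (2693 against 3598 bp), Ptrf (3491 against 5223 bp) and Pacsin2 (3693 against 4170 bp), whereas both lengths were close for the other genes, as for Ehd2 (5100 against 5285 bp) and Sdpr (3055 against 3058 bp). As this difference follows the depot, the kind of row and eWAT cannot be told apart. Levels in iWAT and BAT rest on identical rows. RPKM is not corrected for the composition of a library. The COX2 row, for example, took a mean of 10.1% of the reads in BAT and 3.84% in iWAT. With scaling to the library size alone, the median log2 fold change of all symbols was 0.28 in iWAT against BAT. With the scaling of the tests below it was 0.01. Values of iWAT over BAT in RPKM thus lie above the log2 fold changes given below.

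Cav1, the main structural protein of caveolae, ranked 29th of 45151 symbols by mean RPKM in iWAT and 24th in eWAT, and 141st in BAT. Its level in iWAT ran from 685 to 981 RPKM with a median of 882. In eWAT the lowest value was 878, the median 1502 and the highest 1634. In BAT the 6 samples lay between 167 and 202, with a median of 191. Every white adipocyte sample was thus above every BAT sample in RPKM, and 1 eWAT sample, mouse 15, fell into the range of iWAT. The mean was 853 ± 104 RPKM in iWAT (SD, n = 6), compared to 1396 ± 269 for eWAT and 189 ± 12.3 for BAT.

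Cav2, the partner that needs Cav1 to reach the cell surface, showed the same order of medians in RPKM. For both genes the eWAT row was the shorter one. Their differences between iWAT and eWAT did not pass the edgeR test given below with all samples. The level of Cav2 was 154 to 247 RPKM in iWAT (median 211), 216 to 370 in eWAT (median 316) and 39.1 to 53.8 in BAT (median 44.0). The BAT samples were again apart from all others, and mouse 15 was again the lowest in eWAT.

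**Figure D1:**
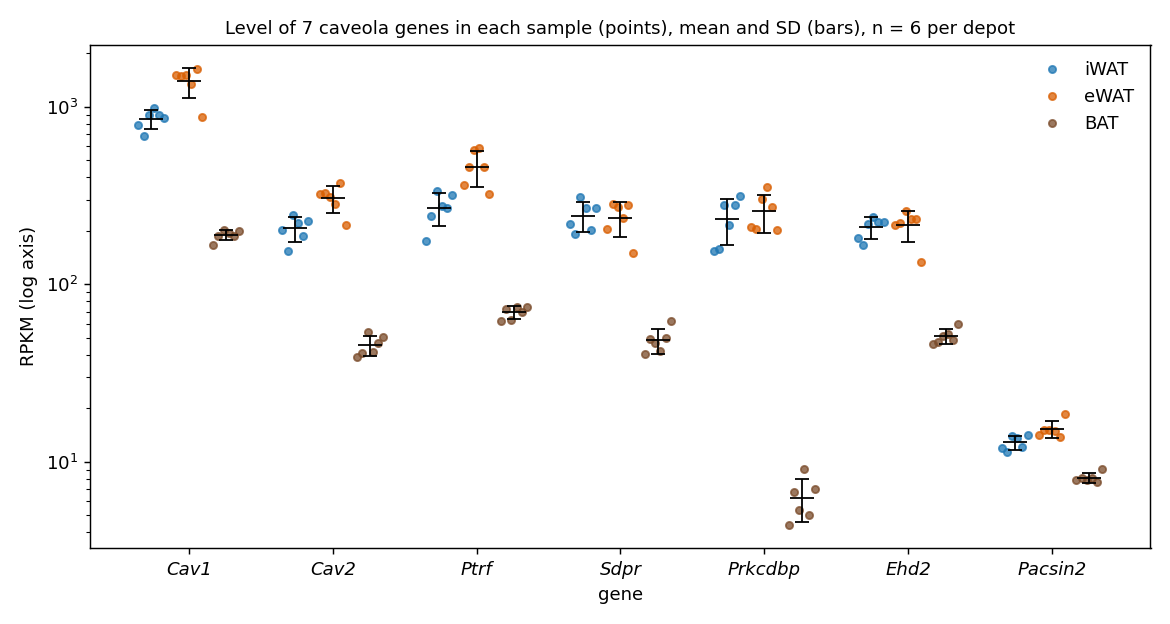
RPKM of 7 caveola genes in every sample on a log axis, coloured by depot, with the mean and SD of 6 samples per depot as black bars. The BAT samples lay below all white adipocyte samples for each of the 7 genes, farthest for Prkcdbp (4.37 to 9.08 RPKM in BAT) and least far for Pacsin2 (7.64 to 9.11).

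Among the cavins, Ptrf was found at 176 to 337 RPKM in iWAT (median 273), 323 to 587 in eWAT (median 458) and 61.9 to 74.6 in BAT (median 71.5). Sdpr was found at 193 to 308 in iWAT (median 244), 150 to 285 in eWAT (median 254) and 40.6 to 62.0 in BAT (median 47.8). For both genes all white adipocyte samples were above all BAT samples, while iWAT and eWAT overlapped.

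Prkcdbp showed by far the widest gap between the depots. The iWAT samples lay between 155 and 315 RPKM (median 246) and the eWAT samples between 202 and 352 (median 241). The BAT samples reached only 4.37 to 9.08 (median 6.03), which rests on 148 to 287 reads per sample. In white adipocytes the mean of Prkcdbp was close to that of Sdpr per length (233 against 243 RPKM in iWAT), whereas in BAT it had the lowest mean of the 7 genes that were detected throughout, at 6.26 ± 1.72 RPKM (SD, n = 6), with samples that overlapped those of Pacsin2.

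Ehd2 was measured at 165 to 240 RPKM in iWAT (median 221), 133 to 259 in eWAT (median 228) and 45.9 to 59.5 in BAT (median 49.7). Pacsin2 had much lower levels, at 11.4 to 14.1 in iWAT (median 12.8), 13.7 to 18.5 in eWAT (median 14.99) and 7.64 to 9.11 in BAT (median 7.97). Pacsin2 was also the member that spread least within iWAT, with a coefficient of variation of 9.10%, compared to 29.0% for Prkcdbp.

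Cav3 was hardly detected. In iWAT, 3 of 6 samples had any read, with 4 reads in all, and in eWAT 3 of 6 samples had 1 read each. In BAT, 2 samples had no read, 3 samples had 2 to 5 reads, and the sample of mouse 12 had 52 reads, or 1.44 RPKM. The white adipocyte samples were all below the level that 3 reads stand for, which was 0.0762 to 0.113 RPKM in these samples and covers counting error only. Cav3 did not pass the filter on low counts, 10 reads in 6 or more samples, and was not tested.

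The first comparison asked how the caveola genes differ between iWAT adipocytes and BAT, which rest on the same rows. All 7 tested genes were higher in iWAT by edgeR's quasi-likelihood test with Benjamini-Hochberg adjustment over 19046 symbols, and 6 of them by more than 2-fold. For all symbols tested, 34.2% were called higher in iWAT and 15.1% were called higher by at least 2-fold. Without any overlap between the 6 and 6 samples, as was found for all 7 genes, 31.9% of all symbols were higher in iWAT. The median log2 fold change was 1.90 over the 7 genes and 0.01 over all symbols.

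Prkcdbp stood first, with a log2 fold change of 4.96 ± 0.22 (SE), or 31.1-fold (adjusted p = 2.28e-10 by edgeR). Sdpr followed with 2.06 ± 0.13 and Ptrf was at 1.69 ± 0.12, so the 3 cavins did not differ by equal amounts. The caveolins were close to each other, at 1.90 ± 0.10 for Cav1 (3.74-fold, adjusted p = 1.41e-09) and 1.91 ± 0.13 for Cav2. Ehd2 was at 1.77 ± 0.11. Pacsin2 was higher by only 0.39 ± 0.07, or 1.31-fold, and still passed the test (adjusted p = 0.000194).

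White adipocytes and whole BAT differ in the cells they hold, and in bulk samples fewer cells of a type and less RNA per cell cannot be told apart. The 6 adipocyte markers (Adipoq, Plin1, Fabp4, Cidec, Lipe and Lep) were all higher in iWAT, with a median log2 fold change of 1.45, and their summed level was 11044 to 16821 RPKM in iWAT against 5808 to 7188 in BAT. The part of this difference in that of the caveola genes was not tested. Endothelial cells also carry many caveolae. Of 10 endothelial markers, none was called higher in iWAT, 4 were called lower and 6 were not called, and their summed level was 36.6 to 204 RPKM in iWAT and 63.4 to 125 in BAT. Of the macrophage markers 3 of 6 were called higher in iWAT, with a median of 1.24, while 5 of 6 smooth muscle and pericyte markers and 7 of 8 tested skeletal muscle markers were called lower. The brown adipocyte markers fitted the labels: all 6 were lower in iWAT, and Ucp1 was at 1219 RPKM in BAT and 2.82 in iWAT.

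The second comparison set eWAT adipocytes against the same BAT samples, so that it is not independent of the first. Here counts were compared per base of row length, over 18383 symbols and all 18 samples. All 7 tested genes were called higher in eWAT, with 39.9% of all symbols called higher (73.9% in either direction), and 6 of them were higher by at least 2-fold, as were 24.4% of all symbols. None of the 7 overlapped between eWAT and BAT in RPKM, but this held for 50.3% of all symbols. Without any correction for composition beyond the library size, the median of all symbols rose to 0.81 in this comparison, compared to 0.08 with TMM scaling, and 11591 symbols were called higher and 3138 lower, compared to 7330 and 6252. Against BAT, values on the RPKM scale therefore lie above the log2 fold changes given here, so that genes higher in eWAT differ more on that scale and genes lower in eWAT differ less.

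Prkcdbp was again first, at 4.65 ± 0.22 (25.1-fold, adjusted p = 1.56e-12 by edgeR). Cav1 was higher by 2.15 ± 0.14 (4.45-fold), Cav2 by 2.01 ± 0.14 and Ptrf by 2.00 ± 0.15. Sdpr was at 1.57 ± 0.15 and Ehd2 at 1.36 ± 0.14, below the caveolins. Pacsin2 was at 0.18 ± 0.08 (adjusted p = 0.0465), and its call was lost in 11 of 18 fits that left out 1 sample each, where its log2 fold change ran from 0.12 to 0.21. In these 18 fits the other 6 genes stayed past the threshold. Without row lengths, an alternative chosen after the data were seen, all 7 genes were called, as were 70.3% of all symbols in either direction, at 1.99 for Cav2, 1.81 for Ptrf, 5.03 for Prkcdbp and 0.41 for Pacsin2.

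**Figure D2:**
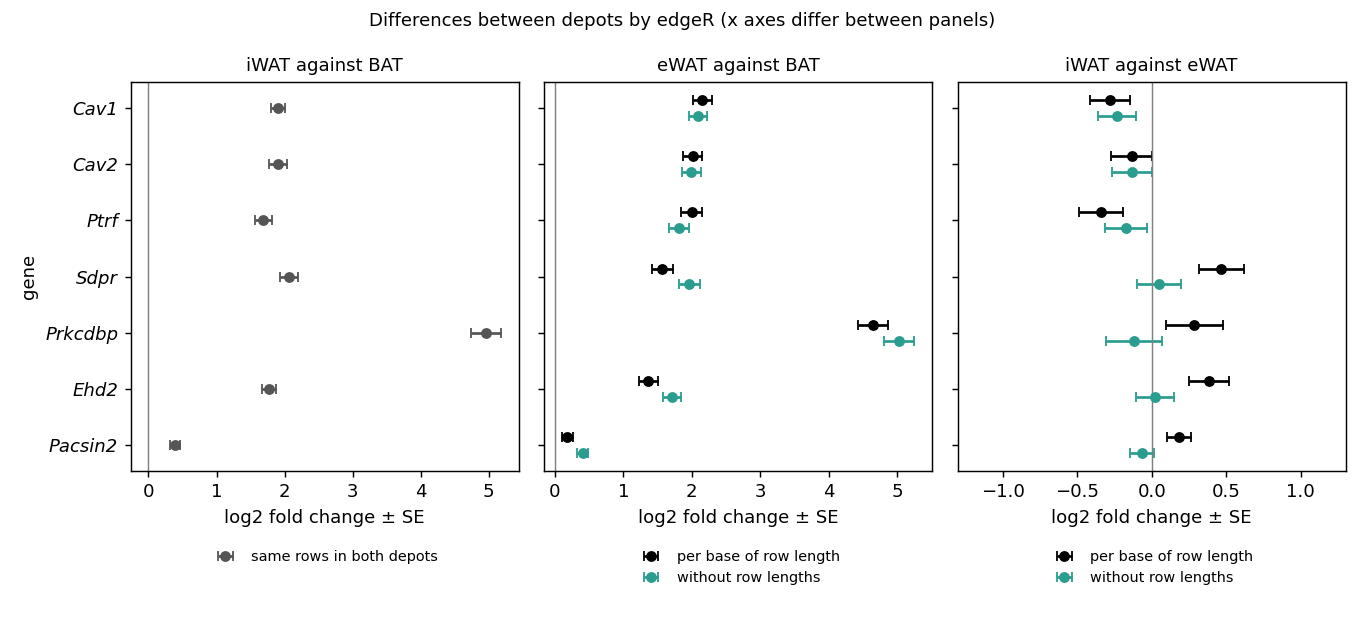
Log2 fold changes of 7 caveola genes with their SE, by edgeR, for the 3 pairs of depots, where values to the right are higher in the depot named first. In the panels with eWAT, black points divide counts by row length and green points do not. Prkcdbp was at 4.96 and 4.65 against BAT, and the iWAT against eWAT panel has a narrower axis.

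Of the adipocyte markers 4 of 6 were called higher in eWAT than in BAT and none lower, with a median log2 fold change of 1.18. All 6 macrophage markers passed the test against BAT, and their summed level was 143 to 2013 RPKM in eWAT, 21.1 to 49.0 in BAT and 27.8 to 144 in iWAT. Of the 10 endothelial markers 3 were called higher in eWAT and 1 lower, and their sum reached 116 to 293 RPKM. Their part in the differences of the caveola genes was not tested. The sum of the 6 smooth muscle and pericyte markers was 99.7 to 193 in eWAT, 66.6 to 113 in BAT and 20.3 to 111 in iWAT. Only Acta2 of this list was called higher in eWAT than in BAT (60.7 against 3.36 RPKM), whereas Myh11, Cnn1 and Rgs5 were called lower, with a median of -0.68 over the list. The sum of the 5 mesothelial markers was 16.2 to 31.9 in eWAT, 11.1 to 13.4 in BAT and 3.70 to 4.59 in iWAT, where Msln and Upk1b were at 0 in all samples. Most of it was Lrrn4 (15.3 RPKM in eWAT and 12.7 in BAT), which was called lower in eWAT, at -0.45 ± 0.13, whereas Upk3b, Upk1b and Krt19 were called higher. The 5 epididymis markers summed to 0 to 76.2 in eWAT, to at most 0.00864 in BAT and to 0 in iWAT, and none of them passed the filter.

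The third comparison asked whether the 2 kinds of white adipocytes differ. Sdpr was higher in iWAT by 0.47 ± 0.15 on the log2 scale (adjusted p = 0.0145 by edgeR), a call that was lost with the library size alone (adjusted p = 0.876). Ehd2 was higher by 0.39 ± 0.14 (adjusted p = 0.0220), although its value turned to -0.05 with the library size alone and its call was lost without the iWAT sample of mouse 13 (0.34, adjusted p = 0.0521). The remaining 5 tested genes did not pass the threshold, compared to 52.4% of all symbols that were called in either direction. Their log2 values were -0.28 ± 0.13 for Cav1, -0.13 ± 0.14 for Cav2, -0.34 ± 0.15 for Ptrf, 0.29 ± 0.19 for Prkcdbp and 0.18 ± 0.08 for Pacsin2, and the last 2 turned negative with the library size alone, at -0.14 and -0.25. With that scaling the median of all symbols moved from 0.04 to -0.40, and Cav1, Cav2, Ptrf and Pacsin2 were called lower in iWAT. The adjusted p values of these 5 genes ran from 0.0609 to 0.430, which does not show that their levels are alike. Of the 6 adipocyte markers, 3 were called higher in iWAT, none was called lower and 3 were not called, with a median log2 fold change of 0.31. Over all symbols, 24.2% were called higher in iWAT. The part of adipocyte content in the values of the caveola genes was not tested.

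The calls of Sdpr and Ehd2 depended on the use of row lengths over all symbols, which also enter the TMM scaling. The rows of these 2 genes themselves were close in length (3055 against 3058 bp and 5100 against 5285 bp). When counts were compared without row lengths, Sdpr was at 0.05 ± 0.15 and Ehd2 at 0.02 ± 0.13, none of the 7 genes was called, and the share of all symbols called fell to 25.6%. Rows on the opposite strand within Ptrf, Ehd2 and Prkcdbp were identical in all 18 samples and gave a check that no row length enters. They overlap the exons of the gene over 77.5% (Ptrf), 96.3% (Ehd2) and 25.0% (Prkcdbp) of their length, and as the strand setting of the counting is not given in the sources used here, reads of the gene and of an antisense transcript cannot be told apart. On these rows iWAT and eWAT differed by -0.09 ± 0.14 for Ptrf, 0.02 ± 0.14 for Ehd2 and -0.09 ± 0.22 for Prkcdbp on the log2 scale, and none was called by edgeR, compared to 12.9% of 5733 shared rows.

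The same opposite-strand rows kept the gap to BAT. As they overlap the exons of the genes, they may count the same reads again and are not independent of the values above. Against BAT the eWAT samples were higher by 2.00 ± 0.15 for Ptrf, 1.78 ± 0.14 for Ehd2 and 4.99 ± 0.27 for Prkcdbp, and the iWAT samples by 1.91 ± 0.15, 1.80 ± 0.15 and 4.90 ± 0.27. All 6 values passed the threshold of edgeR, as did 67.8% of shared rows between eWAT and BAT. The BAT samples of the Prkcdbp row lay at 0.991 to 2.12 RPKM and those of iWAT and eWAT at 29.0 to 78.2.

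Ratios of 2 members within a sample do not depend on how samples are scaled. For 6 ratios, the 3 pairs of depots were compared with exact two-sided permutation tests, for which 0.00216 is the smallest p that 6 against 6 samples allow, and p values were adjusted over the 18 tests. In iWAT, Prkcdbp was at 0.850 of the level of Ptrf (geometric mean, n = 6), compared to 0.0890 in BAT and 0.559 in eWAT. The log2 ratios of the BAT samples lay between -3.80 and -3.02 and those of the white adipocytes between -1.16 and 0.05. Both differences from BAT had an adjusted exact permutation p of 0.00487.

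Pacsin2 behaved in the opposite way relative to Cav1. In BAT its level was 0.0434 of that of Cav1, compared to 0.0152 for iWAT and 0.0112 for eWAT, and BAT did not overlap with either (adjusted exact permutation p = 0.00487 for both). Cav2 was at a nearly equal fraction of Cav1 in all depots, with 0.240 for iWAT, 0.219 for eWAT and 0.239 for BAT. The log2 difference of this ratio between iWAT and BAT was 0.01, with SDs of 0.16 and 0.13 within the depots (adjusted exact permutation p = 0.909). Ptrf was at 0.312, 0.328 and 0.367 of Cav1, and none of these 3 differences passed (adjusted exact permutation p = 0.0899 for iWAT and BAT). With the opposite-strand row of Ptrf, the log2 difference was -0.68 in eWAT against BAT (adjusted exact permutation p = 0.00557) and 0.58 in iWAT against eWAT (adjusted exact permutation p = 0.039), and both passed. There Cav1 kept its shorter eWAT row (2487 against 3434 bp), so the row length of Cav1 enters both values. When reads of the main eWAT rows were divided by the merged lengths, these differences were -0.28 and 0.04. Neither passed (adjusted exact permutation p = 0.132 and 0.839).

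**Figure D3:**
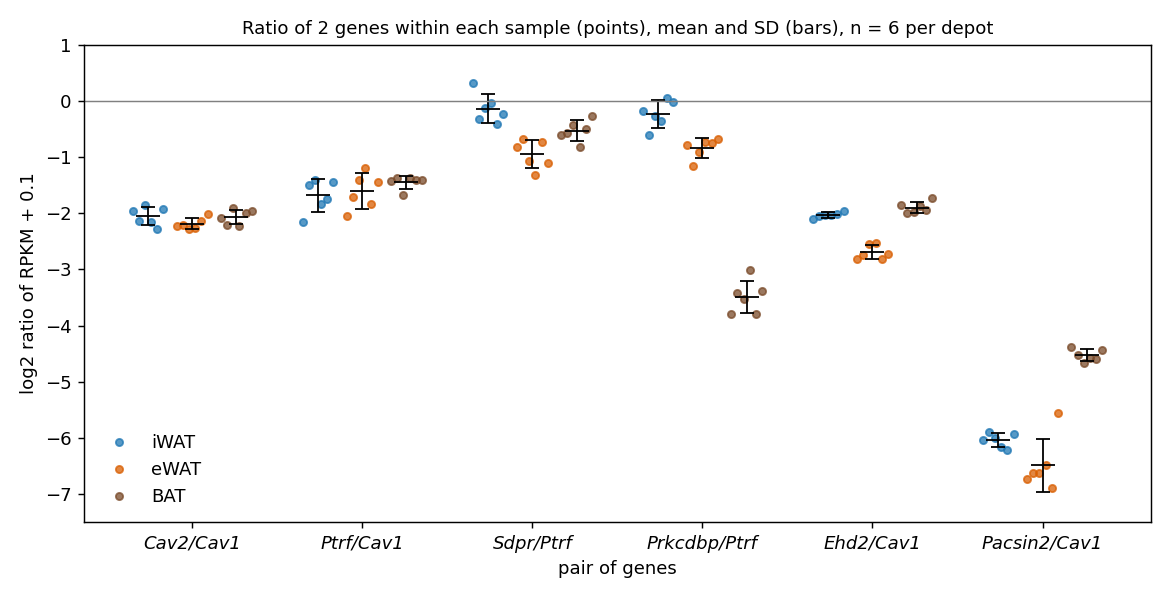
Log2 ratio of 2 genes within each sample, from RPKM with 0.1 added, coloured by depot, with the mean and SD of 6 samples per depot as black bars. Prkcdbp relative to Ptrf was lowest in BAT (-3.80 to -3.02), Pacsin2 relative to Cav1 was highest in BAT (-4.67 to -4.39), and Cav2 relative to Cav1 overlapped in all depots.

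Sdpr relative to Ptrf was higher in iWAT than in BAT, at 0.908 against 0.691, with overlapping samples (adjusted exact permutation p = 0.0142). With the opposite-strand row of Ptrf this difference was 0.26 on the log2 scale and did not pass (adjusted exact permutation p = 0.106). Ehd2 relative to Cav1 was slightly lower in iWAT than in BAT, at 0.245 against 0.268, a log2 difference of -0.13 (adjusted exact permutation p = 0.0142). Ratios in eWAT carry the row lengths of 2 genes. When eWAT reads were divided by the merged lengths, the iWAT against eWAT difference fell from 0.81 to 0.23 for Sdpr relative to Ptrf (adjusted exact permutation p = 0.237) and from 0.61 to 0.04 for Prkcdbp relative to Ptrf (adjusted exact permutation p = 0.839). For Ehd2 relative to Cav1 it fell from 0.66 to 0.25 and still passed (adjusted exact permutation p = 0.00649). With the eWAT row of highest RPKM it was 0.12 and did not pass (adjusted exact permutation p = 0.102). In eWAT against BAT, Ehd2 relative to Cav1 was lower, at 0.154 against 0.268, a log2 difference of -0.79 (adjusted exact permutation p = 0.00487). It was -0.38 with the merged lengths and -0.25 with the eWAT row of highest RPKM. Both passed (adjusted exact permutation p = 0.00649 and 0.0195).

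Murc, the cavin of striated muscle, was measured beside Cav3. Its level was 0.141 to 0.475 RPKM in iWAT, 0.0762 to 0.352 in eWAT and 0.270 to 4.28 in BAT, where the highest value, 273 reads, was again that of mouse 12 and the other BAT samples were at most 0.654. By edgeR Murc was lower in iWAT than in BAT by 2.04 ± 0.67 on the log2 scale (adjusted p = 0.0151), as were 33.6% of all symbols, a call that was lost in both limma fits. It was lower in eWAT than in BAT as well, with a log2 fold change of -2.89 ± 0.62 (adjusted p = 0.000353). When the BAT sample of mouse 12 was left out, the log2 fold changes were -0.77 and -1.63 and both stayed past the threshold. Murc also passed between iWAT and eWAT in that fit, at 0.84 (adjusted p = 0.0428), compared to an adjusted p of 0.275 with all samples.

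Skeletal muscle markers were highest in the same BAT sample as Cav3 and Murc. The sum of 10 markers, among them Acta1, Ckm and Mylpf, was 1613 RPKM in the BAT sample of mouse 12, 143 in that of mouse 8, 52.4 in that of mouse 6, 9.65 in that of mouse 11, 1.52 in that of mouse 13 and 0.863 in that of mouse 7. Cav3 had 52, 5, 4, 2, 0 and 0 reads in these samples in the same order. Murc did not follow this order outside mouse 12, with 0.492, 0.367, 0.654, 0.443 and 0.270 RPKM in the other 5 samples, and in iWAT it was highest in mouse 11, at 0.475 RPKM, where the sum of muscle markers was lowest, at 5.47. The part of muscle in these values was not tested. Without mouse 12 the mean of Cav3 in BAT fell from 0.293 to 0.0635 RPKM and that of Murc from 1.08 to 0.445. Cav1, at 187 RPKM, and Ptrf, at 70.1, lay within the range of the other BAT samples in mouse 12, and the 7 calls between iWAT and BAT were all kept without it.

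**Figure D4:**
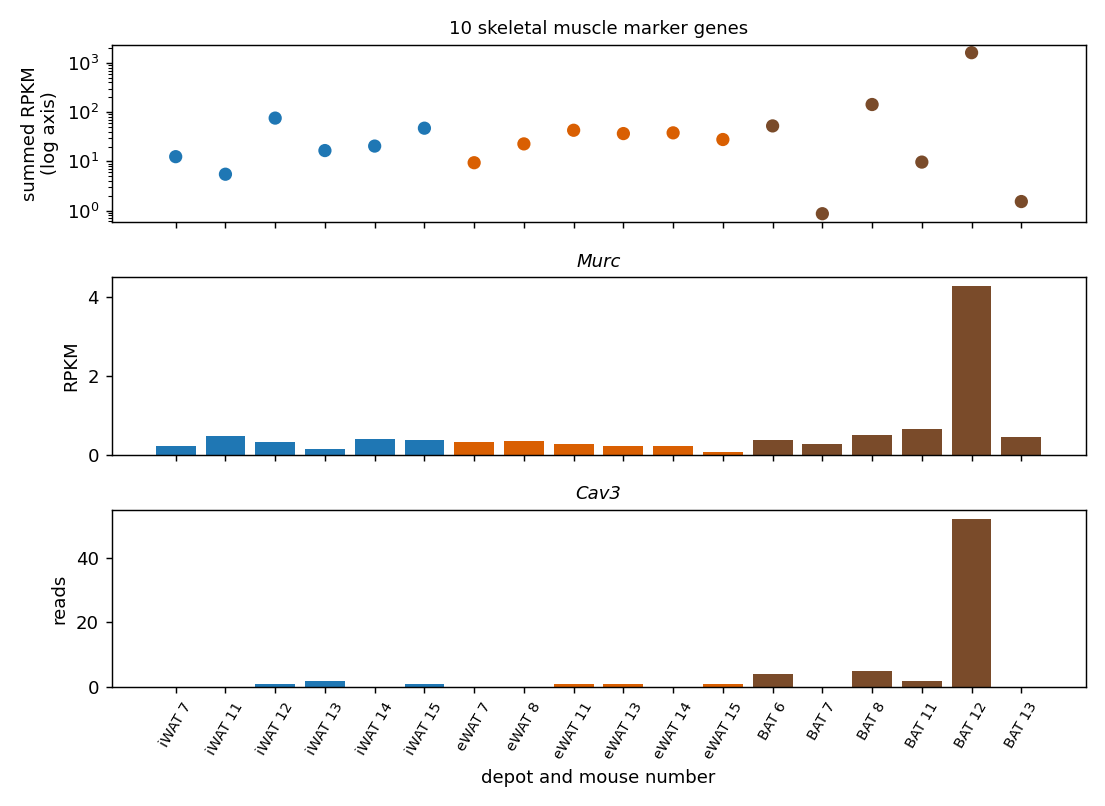
Summed RPKM of 10 skeletal muscle markers (top, log axis), RPKM of Murc (middle) and reads of Cav3 (bottom) in every sample, labelled by depot and mouse number. The BAT sample of mouse 12 was the highest in all 3 panels, with 1613 RPKM, 4.28 RPKM and 52 reads.

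In eWAT, mouse 15 stood apart. Cav1 was at 878 RPKM in this sample and at 1350 to 1634 in the other 5, and Ehd2 was at 133 compared to 215 to 259. Sdpr, at 150, and Cav2, at 216, were also lowest there. Pacsin2 went the other way and was highest, at 18.5 compared to 13.7 to 15.1. The same sample held the highest sum of macrophage markers, 2013 RPKM compared to 143 to 483, and the lowest sum of adipocyte markers, 9313 compared to 12983 to 17091. Its epididymis markers summed to 71.0 RPKM, compared to 76.2 in mouse 14 and at most 3.64 in the other eWAT samples. The part of all these cells in the members' values was not tested.

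Without mouse 15 the mean of Cav1 in eWAT was 1499 RPKM instead of 1396, and that of Ehd2 was 232 instead of 216. The log2 difference between iWAT and eWAT then moved to -0.38 for Cav1 (adjusted p = 0.00519 by edgeR), to -0.42 for Ptrf (adjusted p = 0.0155) and to 0.25 for Pacsin2 (adjusted p = 0.00469), and all 3 passed the threshold. Together with Sdpr and Ehd2, 5 of 7 genes were then called, as were 9438 of 18236 symbols. The call of Pacsin2 against BAT was lost, at 0.12 (adjusted p = 0.126), while the other 6 genes stayed higher in eWAT.

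**Figure D5:**
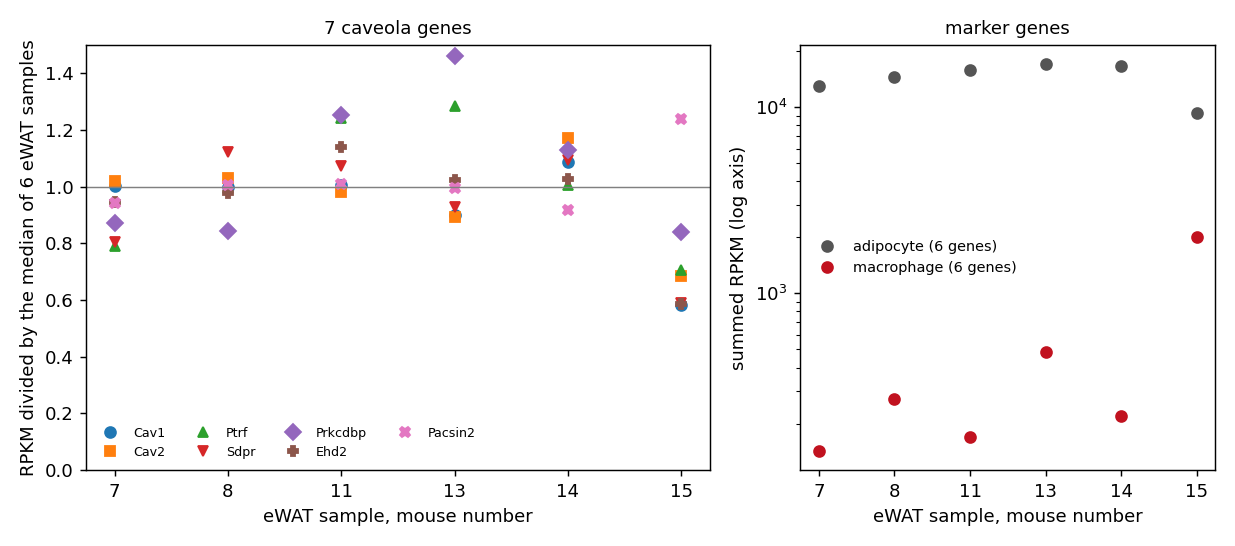
Left, RPKM of 7 caveola genes in each eWAT sample, divided by the median of the 6 samples. Right, summed RPKM of 6 adipocyte and 6 macrophage markers in the same samples on a log axis. In mouse 15, Cav1, Cav2, Ptrf, Sdpr, Prkcdbp and Ehd2 were lowest and Pacsin2 was highest, with macrophage markers at 2013 RPKM and adipocyte markers at 9313 RPKM.

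Genes were also ranked by how closely they varied with Cav1 within depots. The measure was Pearson's r over 18 samples between deviations of log2(RPKM + 0.1) from the mean of each depot, for 10337 symbols with a mean of at least 1 RPKM in every depot. The samples of a gene pair share library and depth, so r is given as a description. The highest values were found for Sh3glb1 (endophilin B1, r = 0.955), Yaf2 (r = 0.947), Hoxc5 (r = 0.932), Ehd2 (r = 0.919) and Enpp2 (autotaxin, r = 0.916). Ehd2 was thus the fourth most similar of all symbols. Cav2 ranked 71st (r = 0.833), Sdpr 288th (r = 0.759), Ptrf 1869th (r = 0.516) and Prkcdbp 2632nd (r = 0.424), whereas Pacsin2 had an r of -0.323.

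Much of this order came from 1 sample. Without mouse 15 in eWAT, 2 of the 5 symbols remained among the first 5, namely Sh3glb1 (r = 0.898) and Yaf2 (r = 0.869). Ehd2 was then at 0.783 and Cav2 at 0.771, Ptrf was at 0.261, and the r of Pacsin2 changed sign to 0.451. The r of the adipocyte marker Adipoq fell from 0.719 to 0.145.

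Other genes with a role in caveolae were taken from 4 lists. The accessory list holds Murc, further EHD, PACSIN and dynamin genes, Ror1, Trip10 and Fnbp1. Between iWAT and BAT, 6 of its 11 tested genes were higher in iWAT, 3 were lower and 2 did not pass, with a median log2 fold change of 0.47. Over all symbols 34.2% were called higher and 33.6% lower in this comparison, and the counts of the next 3 lists are to be read against these shares. Ehd3 was higher by 1.84 ± 0.22 and Ehd1 by 0.84 ± 0.11, both relatives of Ehd2 that act in endosomal recycling. Ror1, a receptor tyrosine kinase, had a log2 value of -1.57 ± 0.27. Between eWAT and BAT, 6 genes were higher, 4 were lower and 1 did not pass, with a median of 0.90 compared to 0.08 over all symbols, of which 39.9% were called higher and 34.0% lower. Ehd3 was at 2.99 ± 0.23 and Ehd4 at 2.26 ± 0.39, while Dnm1, the neuronal dynamin, was at -1.20 ± 0.46, a call that was lost in 9 of 28 alternatives.

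Lipid rafts and adaptors were covered by 6 genes. Between iWAT and BAT, 3 were higher, 2 were lower and 1 did not pass, with a median of 0.66. Cbl, an adaptor and ubiquitin ligase, was higher by 1.53 ± 0.15. Sorbs3 (vinexin) was at -1.69 ± 0.25 and the raft protein Flot2 at -0.38 ± 0.07, and with the library size alone Flot2 was at -0.11 and did not pass (adjusted p = 0.195 by edgeR). In eWAT against BAT 4 genes were higher and 2 lower, with a median of 0.82, compared to 5 and 0 with the library size alone. Sorbs2 was at 2.14 ± 0.20 in that comparison, and without row lengths at 0.50. Sorbs3 was at -0.58 ± 0.25 and Flot2 at -0.32 ± 0.08, and both turned positive with the library size alone, at 0.16 and 0.40. The call of Sorbs3 was lost in 13 of 28 alternatives.

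Receptors, carriers and enzymes that have been placed in caveolae made up the cargo list of 7 genes. Between iWAT and BAT, 5 were higher and 2 lower, with a median of 0.53. Aoc3, the amine oxidase of the adipocyte surface, was higher by 2.23 ± 0.11 and Nos3, the endothelial nitric oxide synthase, by 1.11 ± 0.11. Slc2a4, the insulin-regulated glucose transporter GLUT4, was lower in iWAT, at -0.67 ± 0.12, as was Igf1r at -0.45 ± 0.14, which did not pass with the library size alone (adjusted p = 0.296 by edgeR). In eWAT against BAT, 4 genes were higher, 1 was lower and 2 did not pass, with a median of 0.37, and 6 were higher with the library size alone. Nos3, at 0.37 ± 0.16, was among the 4, but its call was lost in 18 of 28 alternatives. Cd36, the fatty acid translocase, was at 2.08 ± 0.13, Aoc3 at 1.79 ± 0.17 and Slc2a4 at -1.46 ± 0.18.

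The last list holds 7 kinases that act on caveola proteins. Between iWAT and BAT, 4 were higher, 2 lower and 1 did not pass, with a median of 0.31. Src, which phosphorylates Cav1, was higher by 2.50 ± 0.13 and Prkca by 1.03 ± 0.13. Fyn was at -0.91 ± 0.29 and Yes1 at -0.20 ± 0.07, and with the library size alone Fyn did not pass (adjusted p = 0.0670 by edgeR) and Yes1 turned to 0.07. In eWAT against BAT, 4 kinases were higher, none was lower and 3 did not pass, with a median of 0.48, and all 7 were called higher with the library size alone. Src was at 3.35 ± 0.13 and Prkcd at 2.61 ± 0.42 in eWAT, where macrophage markers were also higher.

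Between iWAT and eWAT the 4 lists depended on the row lengths. The median log2 values with row lengths were -0.51 for the accessory list, -0.60 for rafts and adaptors, 0.41 for cargo and -0.50 for kinases, compared to 0.04 over all symbols. Of the macrophage markers 5 of 6 were lower in iWAT in the same comparison, as were 4 of 4 tested mesothelial and 3 of 10 endothelial markers, and their part in these counts was not tested. With row lengths, 2 accessory genes were higher in iWAT and 6 lower, compared to 1 and 4 without them. For rafts and adaptors these counts were 2 and 3 with row lengths and 3 and 0 without, for cargo 4 and 1 against 2 and 0, and for kinases 0 and 5 against 0 and 3. Over all symbols with row lengths, 24.2% were called higher and 28.2% lower. With the library size alone no gene of the 4 lists was called higher in iWAT, and 7 accessory genes, 4 of rafts and adaptors, 3 of cargo and 6 kinases were called lower. The genes below passed with and without row lengths. Ehd4 was lower in iWAT, at -1.80 ± 0.38, and Ror1 at -1.80 ± 0.29, and Prkcd and Fyn were at -2.45 ± 0.42 and -1.33 ± 0.34. Cbl was higher in iWAT at 0.47 ± 0.16, Flot1 at 0.43 ± 0.09 and Slc2a4 at 0.76 ± 0.18, although with the library size alone none of these 3 genes passed. Sorbs2, at -1.91 ± 0.20, Sorbs3, at -1.13 ± 0.25, Trip10, at 0.53 ± 0.14, Fnbp1, at 0.33 ± 0.09, Cd36, at -1.02 ± 0.13, and Nos3, at 0.72 ± 0.16, were called with row lengths but not without them, and Fnbp1 turned to -0.10 with the library size alone.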

How the data were processed

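Poly(A) RNA was sequenced from 18 samples, 6 each of iWAT adipocytes, eWAT adipocytes and BAT, and groups were taken from the sample labels. The authors deposited read counts per row, with row lengths and RPKM computed from them. The submitters' processing notes name cutadapt 1.16 and HISAT2 2.1.0, whereas the paper's methods name the Genomatix Genome Analyzer. Which mapper gave the deposited counts could not be settled. Recomputed RPKM differed from the deposited RPKM by at most 7.38e-06 of the value. Rows were merged genes in iWAT and BAT (53445 rows) and transcripts in eWAT (189660 rows) on mm9, and the 45151 symbols in both were used, with the most-read transcript in eWAT.

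Symbols that reached 10 reads in 6 or more samples were tested with edgeR 4.0.16 (quasi-likelihood, TMM scaling, R 4.3.3) and Benjamini-Hochberg adjustment at 0.05. The 12 samples of iWAT and BAT entered the first fit, and all 18 samples entered the others with row lengths as offsets. The fit was also run on simulated counts, with a common spread for all symbols, most symbols unchanged between depots and exact row lengths. Such counts cannot show how the fit handles differences in composition or in the kind of row. DESeq2 1.42.0, limma 3.58.1 on log2(RPKM + 0.1) and log2(RPKM + 1), other filters, rows and scalings, a replicate block and leaving out each sample were alternatives. Ratios were compared with exact permutation tests (scipy 1.17.1). Besides the 8 members, Murc and the 5 genes most like Cav1, up to 2 genes with the largest called change in each direction were named per list and comparison, except for 1 gene that is not reported here. The members and lists were chosen with earlier results of these data known. Total counts per sample were 22929576 to 34512470, and floors at 3 reads cover counting error only, whereas standard errors hold the spread between samples.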

Additional observations from a re-analysis of the deposited data

Results flagged for a closer look

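Of 45 measures, each a level or ratio in the 6 samples of a depot, 8 had a sample far from the other 5, where chance alone gives about 1 in 20, or 2.2 of them. In eWAT, mouse 15 was far below the others for Cav1 (878 RPKM compared to 1350 to 1634) and Ehd2 (133 compared to 215 to 259). It was far above them for Pacsin2 (18.5 RPKM compared to 13.7 to 15.1) and for the log2 ratio of Pacsin2 to Cav1 (-5.56 compared to -6.88 to -6.49). In BAT, mouse 12 was far above the others for Cav3 (1.44 RPKM compared to at most 0.161) and Murc (4.28 compared to 0.270 to 0.654). In BAT, mouse 13 was highest for Pacsin2 (9.11 RPKM compared to 7.64 to 8.12), and mouse 8 was lowest for the log2 ratio of Ptrf to Cav1 (-1.68 compared to -1.43 to -1.37). The 4 values of mouse 15 come from 1 library, as do the 2 of mouse 12, so they are not independent.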

How the results depend on the processing

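All 7 members were called higher in iWAT than in BAT under every alternative run, and 6 to 7 of the 7 were called in eWAT against BAT, where Pacsin2 was the exception. Without a filter on low counts Cav3 was tested too and was called lower than BAT in iWAT (-3.77, adjusted p = 0.0175 by edgeR) and in eWAT (-4.64, adjusted p = 0.00168), with 52 of its 63 BAT reads in mouse 12. Over fits without 1 sample, all symbols called numbered 11917 to 12861 (iWAT and BAT), 12917 to 13663 (eWAT and BAT) and 8969 to 9757 (iWAT and eWAT), and members called 7 to 7, 6 to 7 and 1 to 5. On rows shared by all samples, eWAT against BAT gave 3 of 3 members and 3888 of 5733 rows, and iWAT against eWAT gave 0 and 737. Members called between iWAT and eWAT were 4 with the eWAT row of highest RPKM, 4 with library size alone, 4 with either limma fit, 1 without a filter and 0 without row lengths, where 4714 symbols were called. Library size alone moved the split of higher and lower calls from 6507 and 6408 to 8830 and 4555 (iWAT and BAT), and from 4440 and 5191 to 946 and 8669 (iWAT and eWAT). Log2 values that changed sign between iWAT and eWAT were Cav2 at 0.018 (highest row), Prkcdbp at -0.14 (library size), -0.16 (both limma fits), -0.12 (no row lengths) and -0.088 (shared rows), Ehd2 at -0.046 (library size) and -0.029 (both limma fits), and Pacsin2 at -0.25 (library size), -0.25 and -0.23 (limma) and -0.066 (no row lengths). Ratios that changed sign were Cav2 to Cav1 between iWAT and BAT at -0.008 (pseudocount 1), Ptrf to Cav1 at 0.15 in eWAT against BAT (highest row) and at 0.58 (opposite-strand rows) and 0.042 (merged lengths) in iWAT against eWAT, Sdpr to Ptrf at 0.10 (opposite-strand rows) and 0.16 (merged lengths) in eWAT against BAT, and Prkcdbp to Ptrf at -0.016 in iWAT against eWAT (opposite-strand rows). Of 18 ratio tests 11 passed, and 11 to 12 without mouse 15 of eWAT or mouse 12 of BAT, which were the samples left out here. Of the 5 genes most like Cav1, 2 remained without mouse 15 of eWAT and 0 without subtraction of depot means. Murc was not called against BAT by limma at log2(RPKM + 1) in either depot, nor at log2(RPKM + 0.1) in iWAT. Where a value changed, the cause was not tested. Alternatives without row lengths, with opposite-strand rows in ratios and with merged lengths were chosen after seeing the data.

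With the mouse number as a replicate block, 11345, 12434 and 8366 symbols and 7, 6 and 2 members were called in the 3 comparisons, and Pacsin2 in eWAT against BAT was the only member whose call changed (0.16, adjusted p = 0.145 by edgeR). Over all tested symbols, samples with the same number had mean correlations of 0.0336, -0.0355 and -0.101. Samples with different numbers had -0.0038, 0.00577 and 0.0222. The numbers were not used to pair samples in the fits as reported or in the ratio tests. With only 4, 4 and 5 shared numbers, these means cannot show that the members are unpaired within a mouse. Depth limits Cav3 most, with 4 reads in all of iWAT.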
